A study of Sus scrofa with 75 samples.

Results

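The small RNA libraries of peripheral blood mononuclear cells (PBMCs) from 13 synthetic large white pigs at 56 days of age were compared with the libraries of the same 13 pigs at 11 days, with both treatments pooled. These are 26 of the 39 small RNA libraries and of the 75 libraries of the series. The 8 control pigs were raised indoors in farrowing crates. The 5 topsoil pigs were given fresh topsoil every day from day 4 of life to weaning at day 20, so that they were under exposure at day 11 and had been without soil since weaning at day 56. Both treatments held males and females, and after weaning all pigs lived in a nursery with no soil. PBMCs were taken on a Histopaque density gradient from blood of the jugular vein, 1 library per pig and age. Treatment, pig and age were read from the names of the count columns. Age, weaning and the move to the nursery are shared by all pigs, so they cannot be told apart in this comparison.

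MicroRNAs (miRNAs) are short RNAs cut from hairpin precursors, which can give a mature strand from each arm (5p and 3p). A mature miRNA pairs with messenger RNAs mainly through its seed, the bases 2 to 8 from its 5′ end, and lowers their stability or translation, so that miRNAs with one seed share many targets. In blood, miR-486, miR-451 and miR-144 are known from red cells and their precursors, miR-150 and the miR-181 family from lymphocytes, miR-223 and miR-142 from myeloid and other white cells, and the let-7 family rises in many tissues as they mature. A PBMC preparation is meant to hold lymphocytes and monocytes, with few red cells and granulocytes.

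The sequences of some mature miRNAs of the comparison are given here, 5′ to 3′ from the RefSeq annotation and genome of Sscrofa11.1, with the seed in capitals. The first set holds the 3 red cell miRNAs, which fell relative to the other miRNAs. With the total count that includes miR-486 as library size, only miR-486 of the 3 fell.
miR-486: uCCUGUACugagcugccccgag
miR-451: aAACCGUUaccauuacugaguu
miR-144: uACAGUAUagaugauguac
The second set shares the seed AUUGCAC, and 3 of its 4 members rose with upper-quartile scaling, of which 1, miR-92b-3p, also rose with the total count without miR-486 as library size.
miR-92b-3p: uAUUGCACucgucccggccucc
miR-92a: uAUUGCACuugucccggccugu
miR-363: aAUUGCACgguauccaucuguaa
miR-32: uAUUGCACauuacuaaguugc
The third set holds abundant miRNAs that rose in each of the library sizes used (miR-21-5p, miR-142-5p and miR-181a). It also holds the let-7 members let-7f-5p and let-7a, which share a seed and did not pass the test with upper-quartile scaling.
miR-21-5p: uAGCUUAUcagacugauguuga
miR-142-5p: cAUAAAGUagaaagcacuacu
miR-181a: aACAUUCAacgcugucggugaguu
let-7f-5p: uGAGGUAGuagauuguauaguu
let-7a: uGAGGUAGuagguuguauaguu
On the minus strand, miR-486 lies at chr17:10758868-10758889 in an intron of ANK1, the ankyrin gene of the red cell membrane, which is read from the same strand. The miRNAs miR-451 (chr12:45088838-45088859) and miR-144 (chr12:45088968-45088986) come from neighbouring hairpins on the minus strand, in an intron of ERAL1, which is read from the other strand. On the same chromosome, miR-21-5p lies at chr12:36065284-36065305 on the plus strand and miR-142-5p at chr12:34609426-34609446 on the minus strand. A locus for miR-92b-3p is at chr4:94624293-94624314 on the minus strand. Of the 209 miRNAs tested, 179 had a mature RefSeq entry.

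The libraries differed in ways that bear on each result. One entry was kept for each mature name, and the total counts per library were then between 1634831 and 13494765. The number of mature miRNAs with at least 1 count was between 147 and 263 and fell into a lower and a higher range, since no library lay between 173 and 212. At day 11, 8 of the 13 libraries were in the lower range (147 to 173 miRNAs), against 2 of the 13 at day 56, those of control replicates 1 and 6 (156 and 149). The libraries of the lower range had few miRNAs with 1 to 9 counts (8 to 23, against 21 to 71 in the higher range), and rare miRNAs were at 0 there. The range did not follow the depth alone, since the 2 libraries of the lower range at day 56 held 2568386 and 3670475 counts other than miR-486, against 987227 to 2174817 in the 5 day 11 libraries of the higher range. Whether low counts were filtered or the input differed in the lower range is not given in the sources used here, so a 0 there is not shown to be an absent miRNA. Only 5 pigs (control replicates 4, 5 and 7 and topsoil replicates 4 and 5) had at least 200 miRNAs in both libraries. Values in these 5 pigs are given beside results of rare miRNAs, from a fit with the RNA quality index as a covariate, as in all pigs, and from one without it, since 10 libraries leave the first fit few degrees of freedom. Both were chosen after the data were seen. With the number of miRNAs with 1 to 9 counts as a covariate, likewise chosen after the data were seen, 29 miRNAs rose and 12 fell. Of the markers of other tissues, miR-1, miR-206 and miR-133a-5p of skeletal muscle and miR-122-3p of liver were at 0 in all 26 libraries. With miR-133a-3p and miR-122-5p, the summed level per 1000000 counts other than miR-486 was at most 1.18 at day 11 and 3.16 at day 56 for skeletal muscle, and at most 2.03 and 6.46 for liver. The smooth muscle markers, the arms of miR-143 and miR-145, summed to between 184 and 1241 at day 11 (median 372) and between 30.5 and 673 at day 56 (median 124). This sum was nearly all miR-143-3p, and miR-143-5p and miR-145-5p were at 0 in all 26 libraries.

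The share of miR-486 fell from day 11 to day 56 in 13 of 13 pigs. At day 11 miR-486 held between 69.1% and 95.5% of all counts (88.0% ± 7.71, SD, n = 13). At day 56 it held between 11.8% and 75.3% (41.8% ± 19.7, SD, n = 13). The ranges of the ages overlapped, since control replicate 4 at day 11 (69.1%) lay under control replicate 6 at day 56 (75.3%), but within each pig the later library held the lower share. The mean difference within pigs was -46.2 percentage points (SD 19.2), with p = 0.000244 in an exact two-sided permutation test of sign flips within pigs, the smallest p that 13 pairs allow. Control pigs differed by -42.2 points (8 of 8 lower, exact p = 0.00781) and topsoil pigs by -52.7 points (5 of 5 lower, exact p = 0.0625, the smallest that 5 pairs allow). As a ratio, there were between 2.24 and 21.2 miR-486 counts per other count at day 11 and between 0.134 and 3.05 at day 56, a mean fall within pigs of 12.7-fold. In bulk PBMC RNA, fewer cells of a type and less of an RNA per cell cannot be told apart.

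The counts other than miR-486 moved the other way. Being the total less miR-486, these counts are tied to its share, so their rise is not a separate result. They numbered between 389906 and 2174817 at day 11 and between 1332667 and 6343113 at day 56, and were higher at day 56 in 13 of 13 pigs, by a mean of 3.30-fold (exact permutation p = 0.000244). The total count per library was lower at day 56 in 12 of 13 pigs, 1.62-fold on average (exact permutation p = 0.00171). More mature miRNAs were seen at day 56 (223 ± 36.6, SD) than at day 11 (181 ± 32.9, SD), with a mean difference of 42.4 within pigs (higher in 12 of 13, exact permutation p = 0.000732). After each library was thinned to 350000 counts other than miR-486, the difference was 18.5 miRNAs (higher in 9 of 13 pigs, exact permutation p = 0.0144). In the 5 pigs with at least 200 miRNAs in both libraries it was 1.03 after thinning (higher in 2 of 5, exact permutation p = 0.875). The thinning equalised only the counts other than miR-486, and the libraries of the lower range still entered the comparison over all pigs.

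**Figure D1:**
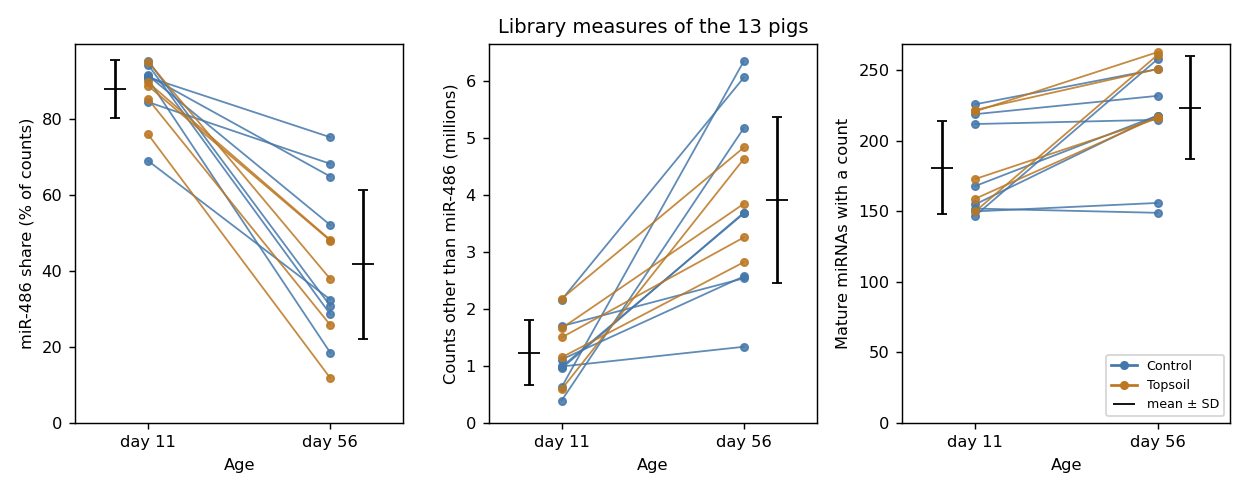
The share of miR-486 (percent of counts), the counts other than miR-486 (in units of 1000000) and the number of mature miRNAs with a count are plotted for each of the 13 pigs at day 11 and day 56, with a line per pig coloured by treatment and the mean ± SD of all pigs in black. The share falls along 13 of 13 lines, and the counts other than miR-486 rise along 13 of 13.

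Since miR-486 took most of the counts at day 11, each change was computed with 3 library sizes. Upper-quartile scaling sets the library size by the 75% quantile of the miRNAs and is the scaling named in the methods of the study, and miR-486 does not enter it. The other library sizes were the total count without miR-486 and the total count with it. With upper-quartile scaling, a total of 61 of 209 miRNAs were differentially expressed (DE) between the ages, 44 higher and 17 lower at day 56, by edgeR's quasi-likelihood test with pig as a block and the RNA quality index (RQI) as a covariate, at a Benjamini-Hochberg adjusted p under 0.10. This is 29.2% of the tested miRNAs, 21.1% up and 8.13% down. The number rested in part on single pigs, with 23 DE (15 up, 8 down) without topsoil replicate 2 and 38 without control replicate 7. Without topsoil replicate 2, miR-29c, miR-31, miR-330, miR-361-3p, miR-221-3p, miR-222, miR-26a, miR-26b-5p and miR-146a-5p no longer passed as rises, nor miR-10b, miR-143-3p, miR-182, both arms of miR-30a and miR-7139-3p as falls. Without control replicate 7, miR-29c, miR-31, miR-330, miR-361-3p and miR-221-3p no longer passed as rises, nor miR-182 and miR-7139-3p as falls. With the total without miR-486, 37 (17.7%) were DE, 14 up (6.7%) and 23 down (11%). With the total that includes miR-486, 162 (77.5%) were DE, 160 up (76.6%) and 2 down (0.957%). The share of calls that were rises was thus 72.1%, 37.8% and 98.8%, and with TMM scaling it was 47.7% (21 up and 23 down).

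The median log2 fold change of the 209 miRNAs was 0.51 with upper-quartile scaling, 0.16 with the total without miR-486 and 2.36 with the total that includes it. The zero line of the comparison therefore moves with the scaling. A change of library size shifts all miRNAs of a library alike, so the distance of a miRNA from the median is nearly fixed by construction. All 44 miRNAs that rose with upper-quartile scaling lay above the median under each of the 3 library sizes, and all 17 that fell lay below it. For example, miR-451 lay -2.15, -2.12 and -2.12 log2 units from the median in turn. Relative to the median, miR-142-5p lay at 1.12, 1.15 and 1.21. Of the 17 falls, 13 had a positive fold change once miR-486 was in the library size, so "fell" below is relative to the other miRNAs and not to all counts. All 14 rises found with the total without miR-486 were among the 44, and all 17 falls were among its 23. DE in 1 direction under all 3 library sizes were 14 miRNAs that rose (let-7d-5p, miR-142-5p, miR-181a, miR-181b, miR-21-3p, miR-21-5p, miR-27a, miR-29a-3p, miR-29b, miR-378, miR-425-5p, miR-532-5p, miR-7134-3p and miR-92b-3p) and 2 that fell (miR-486 and miR-7-5p). In the text that follows, a level is in CPM, here the counts per 1000000 counts other than miR-486, a difference is a log2 fold change with upper-quartile scaling, and each adjusted p is from edgeR's quasi-likelihood test over the 209 miRNAs.

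**Figure D2:**
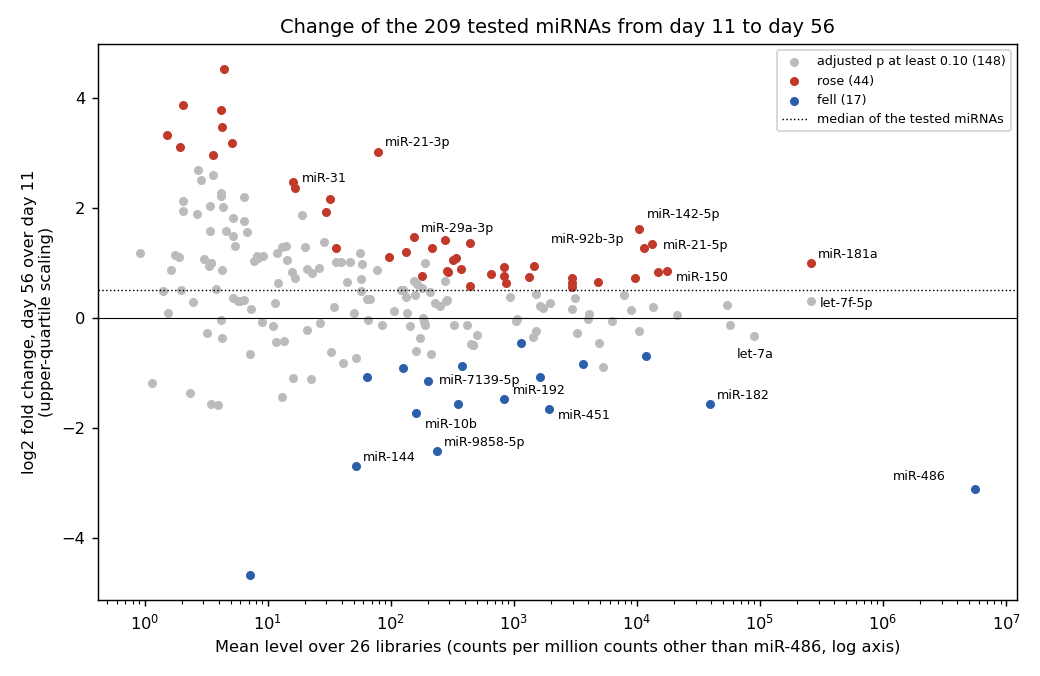
The log2 fold change from day 11 to day 56 (upper-quartile scaling) of each of the 209 tested miRNAs is plotted against its mean level over the 26 libraries on a log axis, with the 44 that rose in red, the 17 that fell in blue and the 148 others in grey. miR-486 lies at the far right at -3.10, and the 8 rises with a mean level under 10 lie at 2.98 or above.

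Calls followed the level. Of 45 miRNAs with a mean of 1000 or more CPM, 13 rose, by at most 1.63, and 7 fell. Of 105 with a mean from 10 to under 1000 CPM, 23 rose and 9 fell. Of 59 with a mean under 10 CPM, 8 rose by 2.98 to 4.53 and 1 fell, and each of those 8 was at 0 in 8 to 11 of the 13 libraries at day 11. A read in at least 17 of 39 libraries was needed, so these 8 entered the test mainly through later ages, where they were higher. The median SE of the log2 fold change was 1.30 under a mean of 10 CPM and 0.22 at a mean of 1000 CPM or more, so the folds of the rare miRNAs are the least certain. In the 5 pigs with at least 200 miRNAs in both libraries, 26 miRNAs rose and 13 fell, and 21 of the 44 rises and 7 of the 17 falls were DE there too. Without RQI in that fit, 22 rose and 11 fell, and 20 of the 44 and 8 of the 17 were DE. All 61 kept their sign in those 5 pigs in both fits. Their libraries are among the 26 that gave the calls, so this is no independent check. By CPM, miR-142-5p and miR-92b-3p were higher at day 56 in 5 of these 5 pigs. The rises miR-26a, miR-107 and miR-186-5p were each lower in 4 of the 5, so their sign there depends on the scaling.

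The 3 red cell miRNAs all fell. In the fit across miRNAs, miR-486 changed by -3.10 (SE 0.47, adjusted p = 0.000135), -3.42 without miR-486 in the library size and -1.18 with it. The level of miR-451, which is made without Dicer by AGO2 cleavage, was between 1189.7 and 9033 CPM at day 11 (median 2479) and between 222 and 1721 CPM at day 56 (median 698). It was lower at day 56 in 13 of 13 pigs while the ranges of the ages overlapped. The log2 fold change of miR-451 was -1.64 (SE 0.31, adjusted p = 0.000764), -1.97 without miR-486 in the library size and 0.24 with it. The level of miR-144, from the neighbouring hairpin, was between 1.02 and 245 CPM at day 11 (median 62.6) and between 0 and 37.2 CPM at day 56 (median 13.3). It was lower in 12 of 13 pigs, and in 5 of the 5 with at least 200 miRNAs in both libraries. It was at 0 in 2 libraries at day 56, those of control replicates 1 and 6. Both are of the lower range, where a 0 is not shown to be an absent miRNA. The log2 fold change of miR-144 was -2.68 (SE 0.68, adjusted p = 0.00878), -2.99 without miR-486 in the library size and -0.81 with it. Leaving out 1 pig at a time gave -3.61 to -2.13 with upper-quartile scaling. The sum of miR-451 and miR-144 had a median of 2522 CPM at day 11 and 711 CPM at day 56. The direction of miR-451 thus depended on whether miR-486 was counted, and miR-144 was not DE with the total that includes miR-486 (log2 fold change -0.81).

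Among the other falls, miR-9858-5p, a pig miRNA with few known functions, had a level of between 112 and 839.9 CPM at day 11 (median 352) and between 16.4 and 114 CPM at day 56 (median 50.8). It was lower in 13 of 13 pigs, with a log2 fold change of -2.41 (SE 0.40, adjusted p = 0.000197). The level of miR-192, an epithelial miRNA induced by p53, was between 705 and 2816 CPM at day 11 (median 1109.8) and between 178 and 865 CPM at day 56 (median 356). It was lower in 13 of 13 pigs and fell by 1.47 (SE 0.30, adjusted p = 0.00159) on the log2 scale, while in the 5 pigs with at least 200 miRNAs in both libraries it was lower in 5 of 5. In the fit of these 5 its log2 fold change was -0.49 (adjusted p = 0.451) with RQI and -1.23 (adjusted p = 0.0912) without. The level of miR-143-3p, abundant in smooth muscle, was between 184 and 1241 CPM at day 11 (median 372) and between 30.5 and 673 CPM at day 56 (median 124). Its ranges overlapped, it was lower in 13 of 13 pigs, and its log2 fold change was -1.56 (SE 0.39, adjusted p = 0.00874).

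The miR-10 family, linked to the HOX genes, had 1 member that fell. The level of miR-10b was between 42.3 and 794 CPM at day 11 (median 204) and between 20.8 and 174 CPM at day 56 (median 50.1), and it fell with a log2 fold change of -1.72 (SE 0.46, adjusted p = 0.0114) and was lower in 12 of 13 pigs. Its relative miR-10a-5p was more abundant and had a log2 fold change of -0.33 (adjusted p = 0.495), which did not pass the test, and the difference between these members was not tested. Both arms of miR-30a fell, with log2 fold changes of -1.13 (SE 0.31, adjusted p = 0.0124) for miR-30a-3p and -0.83 (SE 0.23, adjusted p = 0.0148) for miR-30a-5p. Both arms of miR-7139, whose hairpin lies in an intron of E2F7, fell as well, miR-7139-5p with -1.06 (SE 0.23, adjusted p = 0.00274) and miR-7139-3p with -1.06 (SE 0.43, adjusted p = 0.0885). For miR-10b, miR-192, miR-143-3p and the arms of miR-30a and miR-7139, the fold change turned positive with the total that includes miR-486 (0.21 to 1.09).

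In the miR-183 cluster, which is known from sensory cells and activated lymphocytes, miR-182 was the most abundant miRNA that fell apart from miR-486. The level of miR-182 was between 8105 and 128684 CPM at day 11 (median 53417) and between 1849 and 62885 CPM at day 56 (median 13938). It was lower in only 9 of 13 pigs, and the ranges overlapped widely. Its log2 fold change was -1.56 (SE 0.50, adjusted p = 0.0307), -1.90 without miR-486 in the library size and 0.30 with it. The neighbouring miR-183 was between 0 and 149 CPM at day 11 (median 41.9) and between 0.308 and 142 CPM at day 56 (median 12.0), with a log2 fold change of -0.81 (adjusted p = 0.598) that did not pass the test. Outside the rule for named miRNAs and chosen after its values were seen, miR-7-5p had the most negative fold change of all, -4.66 (SE 1.51, adjusted p = 0.0337), on 181 counts over the 13 libraries at day 11 and 83 over those at day 56. In the 5 pigs with at least 200 miRNAs in both libraries, miR-7-5p had -3.19 (adjusted p = 0.226), and -2.78 (adjusted p = 0.188) without RQI.

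**Figure D3:**
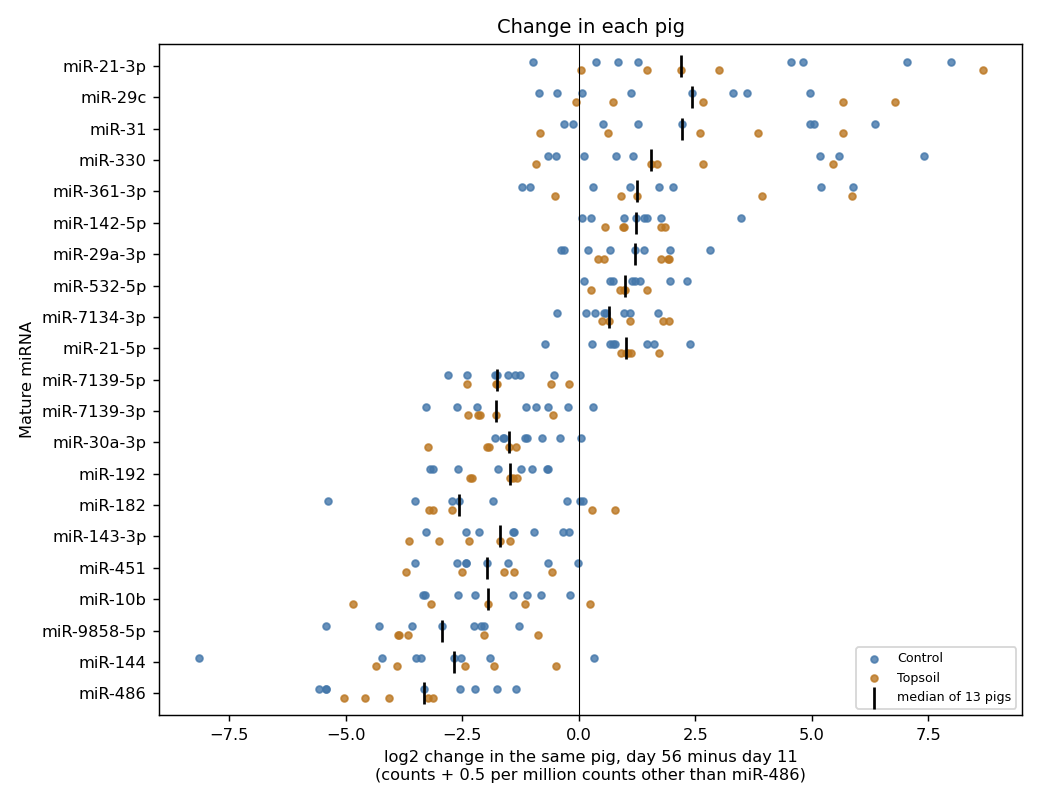
For miR-486 and the 20 named miRNAs with the largest rises and falls, each point is the log2 change of 1 pig from day 11 to day 56 (CPM, with 0.5 added to each count), in blue for control and orange for topsoil pigs, and the black bar is the median of 13 pigs. Both treatments lie on the same side of 0 for most miRNAs, and the 5 miRNAs at the top and miR-144 spread most widely.

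Several abundant miRNAs were among the rises. The level of miR-92b-3p, of the miR-25/92 seed family, was between 5323 and 13889 CPM at day 11 (median 7229) and between 9440.1 and 20984 CPM at day 56 (median 15915). It was higher at day 56 in 13 of 13 pigs with overlapping ranges, and its log2 fold change of 1.28 (SE 0.18, adjusted p = 6.69e-05) had the smallest p of the 209. The level of miR-142-5p, from a blood cell hairpin needed for lymphoid and myeloid development, was between 918 and 11006 CPM at day 11 (median 5955) and between 6677 and 33316 CPM at day 56 (median 13593). It was higher in 13 of 13 pigs, and its log2 fold change was 1.63 (SE 0.27, adjusted p = 0.000184), 1.30 without miR-486 in the library size and 3.57 with it. The level of miR-21-5p, induced in activated T cells and macrophages, was between 4773 and 13385 CPM at day 11 (median 9694) and between 7300.1 and 26999 CPM at day 56 (median 19177). It was higher in 12 of 13 pigs, the exception being control replicate 4, and its log2 fold change was 1.35 (SE 0.22, adjusted p = 0.000184), 1.02 without miR-486 in the library size and 3.28 with it.

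The lymphocyte miRNA miR-181a, which tunes T cell receptor signalling in the thymus, was the most abundant miRNA after miR-486 at day 56, while let-7f-5p was so at day 11. The level of miR-181a was between 114597 and 355657 CPM at day 11 (median 183632) and between 234124 and 487677 CPM at day 56 (median 290045), higher in 13 of 13 pigs. Its ranges overlapped, and its log2 fold change was 1.01 (SE 0.21, adjusted p = 0.00154). Its partner miR-181b, which shares the seed and both loci, rose too, with 0.84 (SE 0.17, adjusted p = 0.00154). The less abundant miR-532-5p, of a cluster on chromosome X, was between 62.2 and 292 CPM at day 11 (median 183) and between 153 and 643 CPM at day 56 (median 366), higher in 13 of 13 pigs, with a log2 fold change of 1.42 (SE 0.26, adjusted p = 0.000471). The level of miR-7134-3p, from an intron of TNRC6B (a partner of Argonaute in silencing), was between 149.8 and 434 CPM at day 11 (median 283) and between 205 and 1359.7 CPM at day 56 (median 552). It was higher in 12 of 13 pigs and its log2 fold change was 1.37 (SE 0.22, adjusted p = 0.000184). The other arm of that hairpin did not pass the test (log2 fold change of miR-7134-5p -0.59 (adjusted p = 0.344)).

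Rises with larger folds came from miRNAs with zeros at day 11. The level of miR-21-3p, the minor arm of miR-21, was between 0 and 145 CPM at day 11 (median 27.8) and between 14.7 and 308 CPM at day 56 (median 129). It was at 0 in 4 libraries at day 11, all 4 of the lower range, and its log2 fold change of 3.03 (SE 0.85, adjusted p = 0.0148) became 1.43 (adjusted p = 0.13) in the 5 pigs with at least 200 miRNAs in both libraries, and 1.25 (adjusted p = 0.0772) there without RQI. Zeros were also seen for miR-29c, miR-31 and miR-330, which were at 0 in 4, 5 and 3 libraries at day 11, each of the lower range. Their log2 fold changes were 2.47 (adjusted p = 0.0935), 2.37 (adjusted p = 0.0796) and 2.17 (adjusted p = 0.0935). Leaving out 1 pig at a time gave 1.45 to 3.09 for miR-29c, lowest without topsoil replicate 2, 1.91 to 2.72 for miR-31 and 1.605 to 2.49 for miR-330. The values in the 5 pigs were 1.73 (adjusted p = 0.121), 0.91 (adjusted p = 0.43) and 0.51 (adjusted p = 0.566), and without RQI 0.88 (adjusted p = 0.322), 1.30 (adjusted p = 0.167) and 0.63 (adjusted p = 0.34). In contrast, miR-361-3p, also at 0 in 4 such libraries, had 1.94 (SE 0.80, adjusted p = 0.092) in all pigs and 2.01 (adjusted p = 0.0234) in the 5, or 1.57 (adjusted p = 0.0207) without RQI.

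**Figure D4:**
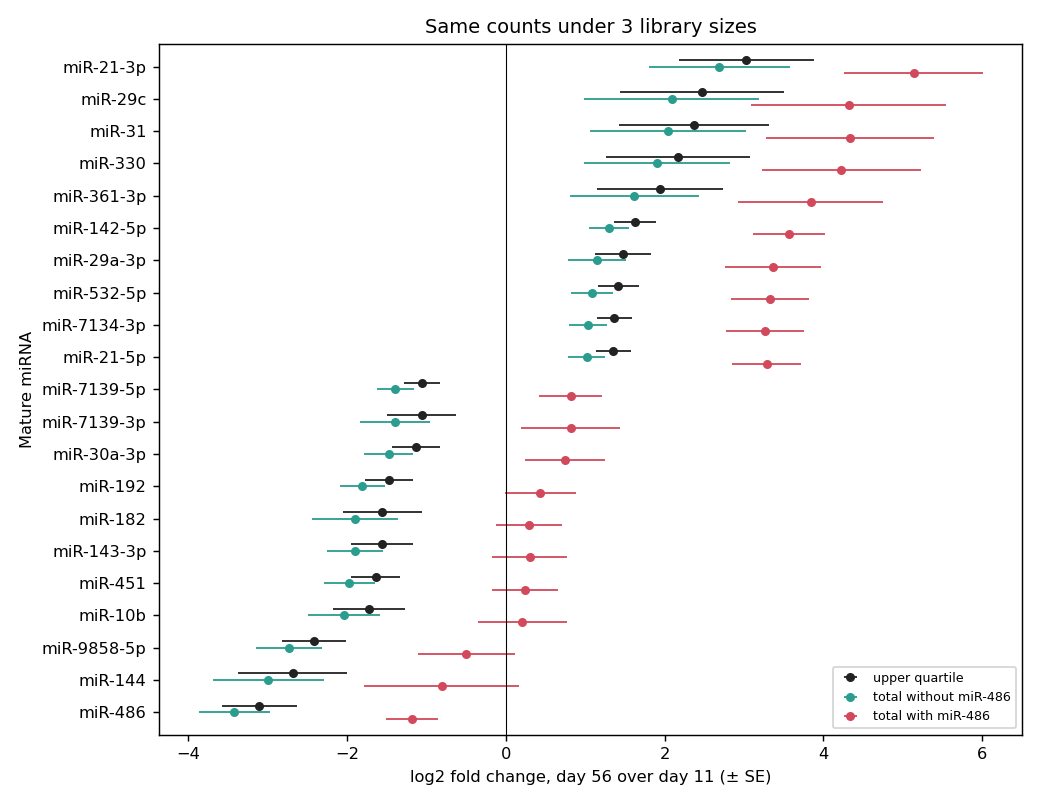
The log2 fold change (± SE) of miR-486 and the 20 named miRNAs with the largest rises and falls is shown with upper-quartile scaling (black), the total without miR-486 (green) and the total with it (red). The 3 values of each miRNA keep their distances from those of the others, as a change of library size makes them do, and for 8 of the 10 named falls, those from miR-7139-5p to miR-10b, the red point lies above 0.

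In the shared-seed set AUUGCAC 3 of 4 tested members rose, miR-92b-3p (above), miR-363 with 0.64 (adjusted p = 0.0399) and miR-32 with 3.18 (adjusted p = 0.0699), the last on 38 counts at day 11 and 335 at day 56. This is to be read beside the 21.1% of all tested miRNAs that rose. At day 11 miR-32 was at 0 in 9 of 13 libraries. It could enter the test only through libraries of later ages, so its rise adds no support to this count. With the total without miR-486 only miR-92b-3p of the 4 rose, and miR-363 (0.31, adjusted p = 0.403) and miR-32 (2.87, adjusted p = 0.132) did not pass. In the 5 pigs with at least 200 miRNAs in both libraries, miR-32 had 2.01 (adjusted p = 0.217), and 1.66 (adjusted p = 0.206) without RQI. The member miR-92a, more abundant than miR-92b-3p by its median at day 11 and less so at day 56, was between 7321 and 22849 CPM at day 11 (median 15238) and between 8243 and 18364 CPM at day 56 (median 11178) with a log2 fold change of 0.20 (SE 0.22, adjusted p = 0.545), which did not pass the test and was negative without miR-486 in the library size (-0.13). Differences in change between the members were not tested. The list of the miR-17-92 cluster and its paralogues, linked to lymphocyte proliferation, holds miR-92b-3p, miR-363 and miR-92a, and 2 of its 11 tested members rose while the other 9 did not pass the test (median 0.20), and 1 rose with the total without miR-486. The let-7 list had 3 of 10 members that rose, both arms of let-7d and let-7g, and 7 that did not pass (median 0.41). The level of let-7f-5p was between 118432 and 362576 CPM at day 11 (median 253646) and between 165992 and 378331 CPM at day 56 (median 249776), with a log2 fold change of 0.31 (adjusted p = 0.416). The level of let-7a was between 84041 and 163701 CPM at day 11 (median 107661) and between 43852 and 90011 CPM at day 56 (median 69398), lower at day 56 in 13 of 13 pigs. Its log2 fold change was -0.33 (adjusted p = 0.317) with upper-quartile scaling and -0.67 (adjusted p = 0.00942) without miR-486 in the library size. With the total that includes miR-486 it was 1.55. Another abundant member, let-7i-5p, had 0.24 (adjusted p = 0.366). With the total without miR-486, 1 of the 10 let-7 members rose and 3 fell, against 6.7% and 11% of all tested miRNAs.

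The miR-26 and miR-29 list, whose miR-29 members restrain interferon gamma in T cells, had 6 of 6 tested members that rose (median 1.38), against 21.1% of all tested miRNAs. Of the 6, miR-29b was at 0 in 11 of 13 libraries at day 11. It could enter the test only through libraries of later ages, so its rise adds no support to this count. The level of miR-29a-3p was between 47.5 and 149 CPM at day 11 (median 89.8) and between 90.4 and 416 CPM at day 56 (median 189.5), higher in 11 of 13 pigs, with a log2 fold change of 1.47 (SE 0.35, adjusted p = 0.00577). The RefSeq entry of miR-29a-3p has the bases UAGCACC at 2 to 8, and miR-29b and miR-29c have AGCACCA. Since the entry of miR-29a-3p begins a base earlier and also holds AGCACCA, the members are not shown to differ in seed. Chosen after its values were seen, miR-29b had a log2 fold change of 3.87 (adjusted p = 0.0337) on 9 counts over all libraries at day 11 and 199 at day 56, and in the 5 pigs with at least 200 miRNAs in both libraries it had 2.29 (adjusted p = 0.394), and 2.88 (adjusted p = 0.137) without RQI. The miR-26 members that rose were miR-26a with 0.66 (adjusted p = 0.0708), miR-26b-5p with 0.75 (adjusted p = 0.0121) and miR-26b-3p with 1.28 (adjusted p = 0.092). With the total without miR-486, 2 of the 6 rose and the median was 1.06.

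Of the cell type lists, the lymphocyte list had 10 of 22 members that rose and 1 that fell (median 0.79), and 4 rose and 1 fell with the total without miR-486. Outside the rule, miR-150 of mature B and T cells rose with 0.87 (adjusted p = 0.0114), and did not pass with the total without miR-486 (0.53, adjusted p = 0.16). Another marker of lymphocytes, miR-342, had -0.22 (adjusted p = 0.579) and did not pass. The summed level of miR-150, miR-155 and miR-342 had a median of 15809 CPM at day 11 and 21046 CPM at day 56. The myeloid list had 7 of 12 members that rose and 5 that did not pass (median 0.96), and 4 rose without miR-486 in the library size. Its defining marker miR-223 did not pass the test (log2 fold change 0.62 (adjusted p = 0.281)), and its level had a median of 167 CPM at day 11 and 172 CPM at day 56. Members that rose in the myeloid list were miR-142-5p and both arms of miR-21 (above), miR-27a with 0.93 (adjusted p = 0.00596), miR-23a with 0.77 (adjusted p = 0.0609), miR-125a with 1.28 (adjusted p = 0.0162) and miR-424-3p with 4.53 (adjusted p = 0.0668). For miR-424-3p, 52 of the 53 counts at day 11 came from control replicate 6. It could enter the test only through libraries of later ages, so its rise adds no support to the 7 of 12. In the 5 pigs with at least 200 miRNAs in both libraries, miR-424-3p had 0 counts at day 11 and 91 at day 56, so that no fold is given for them. The platelet and vessel list had 2 of 9 that rose and 1 that fell, miR-143-3p (median 0.89), and 0 rose and 1 fell without miR-486 in the library size. Its risers were miR-222 (0.81 (adjusted p = 0.0206)) and miR-221-3p (0.85 (adjusted p = 0.0442)), which share a seed and a locus on chromosome X and also act in red cell precursors. The summed level of the platelet marker miR-126 had a median of 35.7 CPM at day 11 and 34.4 CPM at day 56.

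The inflammation list, of miRNAs induced through Toll-like receptors, had 3 of 8 that rose and 5 that did not pass (median 0.92), both arms of miR-21 and miR-146a-5p (0.73 (adjusted p = 0.0162)), and 2 rose with the total without miR-486. In the miR-15/16 list 2 of 4 rose (median 0.53), miR-15a and miR-424-3p, of which the latter adds no support (above). With the total without miR-486, 0 of the list rose. Its members miR-16 (0.16 (adjusted p = 0.608)) and miR-15b (-0.47 (adjusted p = 0.148)) did not pass the test, and miR-15b fell with the total without miR-486 (-0.80, adjusted p = 0.0141). The miR-181 list had 2 of 4 that rose (median 0.53), miR-181a and miR-181b, and both rose with the total without miR-486. The miR-23/27/24 list had 2 of 6 that rose (median 0.73), and 1 rose with the total without miR-486. The list's miR-27b-3p did not pass the test in all pigs (-0.047 (adjusted p = 0.933)). In the 5 pigs with at least 200 miRNAs in both libraries it had 1.11 (adjusted p = 0.0613) in the fit with RQI and -0.04 (adjusted p = 0.97) without it, and its CPM was lower at day 56 in 4 of the 5. In the miR-30 list 1 of 9 rose and 2 fell (median -0.12), against 0 and 3 with the total without miR-486, and its most abundant member, miR-30d, had 0.42 (adjusted p = 0.147).

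In the list of miR-99, miR-100, miR-125 and miR-10 members 1 of 8 rose, miR-125a, and 1 fell, miR-10b (median -0.091), against 0 and 1 with the total without miR-486. In the miR-183 list 1 of 2 fell, miR-182 (median -1.19). The list of abundant miRNAs often used as references in blood had 3 of 11 that rose, miR-107, miR-186-5p and miR-425-5p, and 8 that did not pass (median 0.34). With the total without miR-486, 1 of these 11 rose (median -0.0088). Among these, miR-191 had a level of between 37086 and 87360.5 CPM at day 11 (median 64400.3) and between 10438 and 109818 CPM at day 56 (median 52928) and a log2 fold change of -0.12 (adjusted p = 0.758), and miR-423-5p had 0.066 (adjusted p = 0.86). In the epithelial list 1 of 5 rose, miR-31, and 1 fell, miR-192 (median 0.66), against 0 and 1 with the total without miR-486, and miR-34c had 0.66 (adjusted p = 0.64). The list of liver, muscle and brain miRNAs had 2 tested members and the imprinted DLK1-DIO3 list 1, and none of the 3 passed edgeR's quasi-likelihood test (miR-128 0.55 (adjusted p = 0.409), miR-9 0.51 (adjusted p = 0.409), miR-127 -1.36 (adjusted p = 0.495)). Some of the lists share members, and their counts are to be read beside the 21.1% that rose and 8.13% that fell among all 209, and the median of 0.51. For the total without miR-486, 6.7% of all 209 rose and 11% fell, with a median of 0.16.

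**Figure D5:**
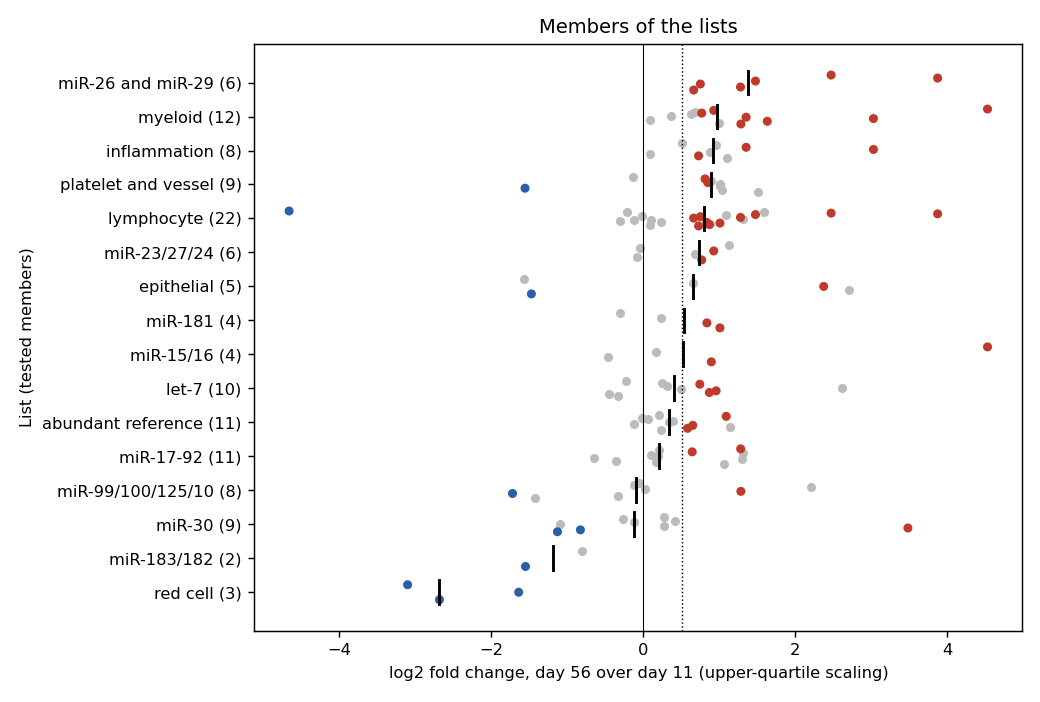
Each point is the log2 fold change (upper-quartile scaling) of 1 tested member of a list, in red where it rose, blue where it fell and grey where it did not pass the test, with the list's median as a black bar and the median of the 209 tested miRNAs as a dotted line. The red cell list lies lowest (-2.68) and the miR-26 and miR-29 list highest (1.38).

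The arms of a hairpin are cut from 1 precursor. Of 37 hairpins with both arms tested, 26 had arms with the same sign. In 7 both arms were DE, and in each of the 7 they moved the same way: let-7d, miR-151, miR-21 and miR-26b rose, and miR-148a, miR-30a and miR-7139 fell. These counts are to be read beside all 209 miRNAs, whose median was 0.51. Of those, 29.2% were DE, and 72.1% of the calls were rises. Some shared signs follow from that shift alone, and whether arms agree beyond it was not tested. The RefSeq loci formed 27 groups of hairpins on 1 strand with gaps of at most 10000 bases, and whether the members of a group share a transcript was not tested. Some members, such as miR-181a and miR-29b, have more than 1 locus, and their counts cannot be assigned to 1 of them. Both members of the miR-451 and miR-144 group fell. Both members rose in the groups of miR-181a and miR-181b, and of miR-29b with miR-29a-3p or miR-29c, where miR-29b had 9 counts at day 11. In the group of miR-221 and miR-222, 2 of 3 rose. The groups of miR-23a and miR-27a and of let-7a and let-7d each had 2 of 4 that rose. These are some of the 27 groups, to be read beside the 21.1% that rose and 8.13% that fell among all tested miRNAs. In the group of miR-425 and miR-191, miR-425-5p rose (1.09 (adjusted p = 0.00909)) and miR-191 did not. Several table entries held identical counts in the libraries and are 1 signal under more than 1 name: miR-199a-3p and miR-199b-3p, miR-9 with miR-9-1 and miR-9-2, and miR-339, miR-339-5p and miR-4334-3p.

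The pooled change was then set apart by treatment. With a treatment by day term, 0 of 209 miRNAs (0%) differed between topsoil and control pigs in their change by edgeR's quasi-likelihood test (smallest adjusted p = 0.992), and 7 had an unadjusted p under 0.05. Within control pigs 25 miRNAs were DE (12%), 16 up (7.66%) and 9 down (4.31%), and within topsoil pigs 25 (12%), 15 up (7.18%) and 10 down (4.78%). The log2 fold change of miR-486 was -2.47 in control and -3.71 in topsoil pigs, that of miR-92b-3p was 1.31 in control and 1.24 in topsoil pigs, and that of miR-451 was -1.56 in control and -1.74 in topsoil pigs. Of the named miRNAs, miR-30a-3p had the smallest unadjusted p for the difference (0.0405, adjusted p = 0.992 by the same edgeR test), with -0.59 in control and -1.78 in topsoil pigs. A difference between treatments that misses the threshold in 8 and 5 pigs does not show that they changed alike.

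No miRNA separated the ages completely once miR-486 was left out of the counts. In CPM without miR-486, 0 of 209 miRNAs (0%) had non-overlapping ranges at the 2 ages, although 61 were DE by edgeR's quasi-likelihood test. Per 1000000 of all counts, 16 (7.66%) lay higher at day 56 in every library than in any library at day 11, and 0 lay lower.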

How the data were processed

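Small RNA was sequenced from PBMCs of 13 pigs at day 11 and day 56 (26 libraries; day 20 entered only the filter and 1 alternative). Per the labels and methods, reads were trimmed with Trim Galore 0.4.5, and the authors aligned them to Sscrofa11.1 with miRDeep2 (version not given in the sources used here) and deposited the counts per miRNA and precursor entry without normalization. The methods of the study name no molecular identifiers, so low counts may vary by more than the counting error. The mRNA table was not used here. Treatment, pig and age were taken from the column names, since the sample characteristics disagree with them in most libraries.

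From 479 entries, the 1 with the largest total was kept for each of 457 mature names. Tested were the 209 miRNAs with a read in at least 17 of 39 libraries and a mean above 2 reads. In R 4.3.3, edgeR 4.0.16 fitted day, pig as a fixed block and RQI (from the study's supplementary table) with upper-quartile (75%) scaling, the quasi-likelihood test and Benjamini-Hochberg adjustment at 0.10. The methods of the study used SAS with pig as a random effect. The same animals were sampled at both ages, so pig is a true pairing. Deviations from the means of treatment and age correlated by 0.0727 on average between the libraries of a pig (-0.138 to 0.508). Single values per library were compared by exact sign-flip permutation (Python 3.11.15, scipy 1.17.1). Loci and sequences are from RefSeq for Sscrofa11.1. On simulated counts of 209 miRNAs with 40 changed 4-fold, the day 56 against day 11 fit called 25 of the 40 with the right sign and 3 others, and 0 with no change simulated.

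Named miRNAs were miR-486, the 10 largest DE rises and 10 largest DE falls with a mean of at least 10 counts per 1000000 counts other than miR-486 (CPM in the text) and the same sign without miR-486 in the library size, the 5 most abundant at each age, and the 2 most abundant of each of the 18 lists. These, the lists and the comparison were chosen with earlier results of these data known. Alternatives were TMM and total scaling with and without miR-486, DESeq2 1.42.0, a limma 3.58.1 fit in which pig was random, other filters, no RQI, litter size by day, no replicate block, all 39 libraries, every entry, a treatment by day term, an adjusted p of 0.05 and each pig left out.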

Additional observations from a re-analysis of the deposited data

Results flagged for a closer look

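The change from day 11 to day 56 in each pig was searched for pigs far from the others of their treatment, over the 48 named miRNAs and 4 library measures. In 6 of 104 groups the gap of the lowest or highest pig to its neighbour was above Dixon's 95% critical value, where chance gives about 1 in 20, or 5.2. On the log2 scale of counts other than miR-486, miR-191 changed by -2.63 in control replicate 7, against -0.67 or more in the other 7 control pigs. The total count of the same pig changed by -2.69 on the log2 scale, against -0.61 or more in the others, and its library at day 56 is the shallowest of the 26 (1634831 counts). For miR-34c, control replicate 6 changed by -7.78 (0 counts at day 56), against -1.13 or more in the others, and its library at day 56 is 1 of those with under 200 miRNAs. For let-7i-5p, control replicate 2 changed by -0.97, against -0.28 or more. For miR-21-5p, topsoil replicate 3 changed by 1.72, against 1.13 or less in the other 4 topsoil pigs. The counts other than miR-486 changed by 2.98 on the log2 scale in topsoil replicate 1, against 1.30 or less in the other 4.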

How the results depend on the processing

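The fall in the share of miR-486 and the rise in counts other than miR-486 kept their direction in each alternative tried, with no p under 0.05 possible in 5 pairs: the share changed by -52.7 points in topsoil pigs and by -49.8 points in the 5 pigs with at least 200 miRNAs in both libraries (exact permutation p = 0.0625 each), where the other counts changed by 0.97 on the log2 scale and the number of miRNAs by 22.4. The count of DE miRNAs was 61 (44 up, 17 down) and moved with the scaling: 162 (160 up, 2 down) with the total that includes miR-486, 37 (14 up) with the total without it, and 21 and 20 up with TMM with and without miR-486. DESeq2 gave 29 down, an adjusted p under 0.05 gave 28 up, the 5 pigs gave 39 (26 up) with RQI and 33 (22 up, 11 down) with no RQI, and the number of miRNAs with 1 to 9 counts as a covariate gave 29 up. These fits of 5 pigs and that covariate were chosen after seeing the data. With no replicate block for the pig pairing, 60 miRNAs were DE (41 up, 19 down). Leaving out 1 pig gave 23 to 61 DE miRNAs (15 to 43 up, 8 to 18 down). Without topsoil replicate 2 there were 23 (15 up, 8 down), and without control replicate 7 there were 38 (26 up). The cause was not tested. With all 13 pigs left out in turn, and with either total, 0 miRNAs differed between treatments in their change by edgeR's quasi-likelihood test, against 7 at an unadjusted p under 0.05 in all pigs.

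Named miRNAs whose log2 fold change changed sign were, with the total with miR-486, miR-10b (0.21), miR-451 (0.24), miR-143-3p (0.30), miR-182 (0.30), miR-192 (0.44), miR-30a-3p (0.75), miR-7139-3p (0.82), miR-7139-5p (0.82), let-7a (1.55), miR-191 (1.75), miR-15b (1.41), miR-30a-5p (1.09), miR-27b-3p (1.85), miR-10a-5p (1.58), miR-183 (0.94) and miR-127 (0.17). They were, with the total without miR-486, let-7f-5p (-0.037), let-7i-5p (-0.097), miR-92a (-0.13), miR-16 (-0.18) and miR-423-5p (-0.27). They were, with the 5 pigs with at least 200 miRNAs in both libraries, let-7a (0.19), miR-92a (-0.33), miR-16 (-0.27), miR-27b-3p (1.11), miR-423-5p (-0.72) and miR-127 (0.41). They were, with those 5 pigs and no RQI, miR-92a (-0.12), miR-16 (-0.41) and miR-423-5p (-0.38). They were, with no replicate block, miR-191 (0.11), miR-16 (-0.018) and miR-34c (-0.052). They were, with all 39 libraries, miR-191 (0.0076), miR-27b-3p (0.097), miR-423-5p (-0.017) and miR-127 (0.29). They were, with the number of miRNAs with 1 to 9 counts as a covariate, miR-191 (0.15), miR-27b-3p (0.014) and miR-423-5p (-0.013). They were, with TMM with miR-486, let-7i-5p (-0.048), miR-92a (-0.091), miR-16 (-0.13) and miR-423-5p (-0.22). They were, with TMM without miR-486, let-7i-5p (-0.057), miR-92a (-0.10), miR-16 (-0.14) and miR-423-5p (-0.23). They were, with DESeq2, miR-92a (-0.028), miR-16 (-0.066) and miR-423-5p (-0.16). They were, with no filter, miR-423-5p (-0.039). They were, with filterByExpr, miR-423-5p (-0.036). They were, with every entry, miR-423-5p (-0.00042). They were, with no RQI, miR-127 (0.24). Without each pig in turn the sign also turned for miR-191 (-0.36 to 0.097), miR-16 (-0.029 to 0.25), miR-27b-3p (-0.27 to 0.21), miR-10a-5p (-0.57 to 0.061), miR-183 (-1.77 to 0.47), miR-423-5p (-0.16 to 0.22) and miR-34c (-0.58 to 1.41). Folds of miRNAs with a mean under 10 CPM rest on few counts, and a 0 in the libraries with under 200 miRNAs could not be told from a low level.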

Other observations

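The DE miRNAs whose values are given here lie outside the rule for named miRNAs and were chosen after their values were seen. Both arms of miR-148a, which is known from B cells, fell, with log2 fold changes of -0.69 for miR-148a-3p and -0.91 for miR-148a-5p. The level of miR-148a-3p was between 5605 and 39219 CPM at day 11 (median 14761) and between 5115 and 10639 CPM at day 56 (median 6351). It was lower in 12 of 13 pigs, and the ranges of the ages overlapped. The other falls were of miR-9841-3p, from an intron of F13A1 (a subunit of coagulation factor XIII), with -0.87 (adjusted p = 0.0742), and of miR-296-3p, with -0.45 (adjusted p = 0.0935), by edgeR's quasi-likelihood test. With the total that includes miR-486, all 4 had a positive log2 fold change (0.98 to 1.44).

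Among the rises, miR-378 has a locus in an intron of PPARGC1B, a coactivator of energy metabolism, and another in an intron of BCAS3. The level of miR-378 was between 131 and 394 CPM at day 11 (median 236) and between 266 and 591 CPM at day 56 (median 395). It was higher in 11 of 13 pigs, with a log2 fold change of 1.06 (SE 0.26, adjusted p = 0.00665) by the same edgeR test. Further rises at a mean of at least 10 CPM were those of miR-660, miR-421-3p, miR-151-3p, miR-151-5p, miR-26b-3p and let-7d-3p, with log2 fold changes from 0.57 (miR-151-3p) to 1.28 (miR-26b-3p), and of these 6 only miR-26b-3p was also DE in the 5 pigs with at least 200 miRNAs in both libraries in the fit with RQI, and only let-7d-3p in the fit without it. Further rises under a mean of 10 CPM were those of miR-345-5p, miR-149, miR-30b-3p, miR-542-3p and miR-574-3p. In the 5 pigs each of these 5 had a positive log2 fold change and none was DE (adjusted p from 0.107 to 0.489 by edgeR with RQI, and from 0.304 to 0.444 without). The hairpin of miR-542-3p lies close to those of miR-450b-5p and miR-450c-5p on chromosome X. Its log2 fold change was 3.33, and those of miR-450b-5p, 1.88 (adjusted p = 0.183), and miR-450c-5p, 2.04 (adjusted p = 0.253), did not pass the test.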
